A study of Mus musculus with 2 samples.

Results

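The genes described here encode the enzymes and carriers that turn glucose into pyruvate and lactate, feed pyruvate into the mitochondrion, and run the tricarboxylic acid (TCA) cycle. They were taken by symbol from a list of 43 genes, which matched 44 of the 55536 annotated genes in the deposited gene tables. All 43 symbols were found, and Aldoa named 2 gene records. The record at chr7:126795234-126800751 in mm10, which starts where RefSeq places Aldoa, was used as Aldoa. The other record, at chr7:126800790-126809108, had 30 and 20 counts and was left out of the medians.

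Total RNA was taken at 36 days of age from the left cerebral cortex of 2 females of B6CASTF1/J, the F1 hybrid between C57BL/6J and CAST/EiJ. Both mice form 1 group called cortex, for which no treatment is named, with 1 library each, named replicate 1 and replicate 2. The labels name a different animal for each library and give both the same donor record. Ribosomal RNA was reduced, strand was kept, and 300 ng of RNA and a set of ERCC spike-in RNAs (synthetic RNAs of known amount) went into each library. The tables held 29417186 expected counts in replicate 1 and 35188766 in replicate 2. With 1 library per mouse and no second condition, no test was made and no p-value is given. Each mean ± SD is over the 2 mice (n = 2), and it covers the spread between these libraries only.

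Glycolysis splits glucose into pyruvate in the cytosol and yields a small amount of ATP. Lactate dehydrogenase converts pyruvate and lactate into one another, and monocarboxylate transporters move both across membranes. Pyruvate that enters the mitochondrion is turned into acetyl-CoA and oxidised in the TCA cycle. In brain, glucose is the main fuel, and several steps have isozymes (different genes for the same reaction) that are known to differ between neurons and glia. A library from whole tissue cannot tell fewer cells of a type from less RNA per cell, so the levels below belong to the tissue.

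Pkm is the gene in which a choice between 2 exons gives either of 2 isozymes, M1 and M2 of pyruvate kinase, which makes pyruvate in the last step of glycolysis. M1 is known as the form of adult brain and muscle, and M2 as the form of many growing tissues. The exons are shown because the shares of the Pkm transcripts further on rest on them. Both lie on the plus strand of chromosome 9 within Pkm (chr9:59656368-59679375, mm10) and are coding exons of 167 bases. Letters are from the GENCODE M21 transcripts, 5′ to 3′, with capitals at the 64 positions where the exons differ.
M1 exon, in Pkm-202, chr9:59675029-59675195: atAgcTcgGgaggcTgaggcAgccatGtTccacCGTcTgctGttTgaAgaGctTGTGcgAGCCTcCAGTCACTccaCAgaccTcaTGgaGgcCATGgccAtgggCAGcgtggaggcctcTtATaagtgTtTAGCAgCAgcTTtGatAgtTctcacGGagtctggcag
M2 exon, in Pkm-201, chr9:59675568-59675734: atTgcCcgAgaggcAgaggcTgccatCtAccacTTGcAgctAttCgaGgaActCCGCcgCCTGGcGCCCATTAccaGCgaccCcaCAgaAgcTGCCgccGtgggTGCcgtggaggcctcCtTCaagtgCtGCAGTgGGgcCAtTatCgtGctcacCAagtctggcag
The 2 exons were 61.7% identical. Of the 11 annotated Pkm transcripts, 1 carries the M1 exon and 1 the M2 exon in full.

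The genes of glycolysis stood at high levels in this cortex, and those of the TCA cycle at lower ones. Levels are in TPM, the share of a library's transcripts that a gene makes up after correction for length. The 43 genes had a median level of 98.1 TPM in replicate 1 and of 93.8 TPM in replicate 2, a mean of 95.9 ± 3.05 TPM. The median of the 12754 nuclear protein-coding genes that reached 1 TPM in both mice was 15.3 ± 1.60 TPM. A mean of at least 100 TPM was reached by 21 of the 43 genes (48.8%), against 6.84% of those expressed genes. The 15 glycolytic enzymes, from hexokinase to pyruvate kinase, had a median of 261 ± 10.3 TPM. The 13 genes of the TCA cycle and of the pyruvate dehydrogenase complex had a median of 79.6 ± 9.86 TPM. Together the 43 genes held 1.79% ± 0.0724 of the TPM of nuclear protein-coding genes.

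**Figure D1:**
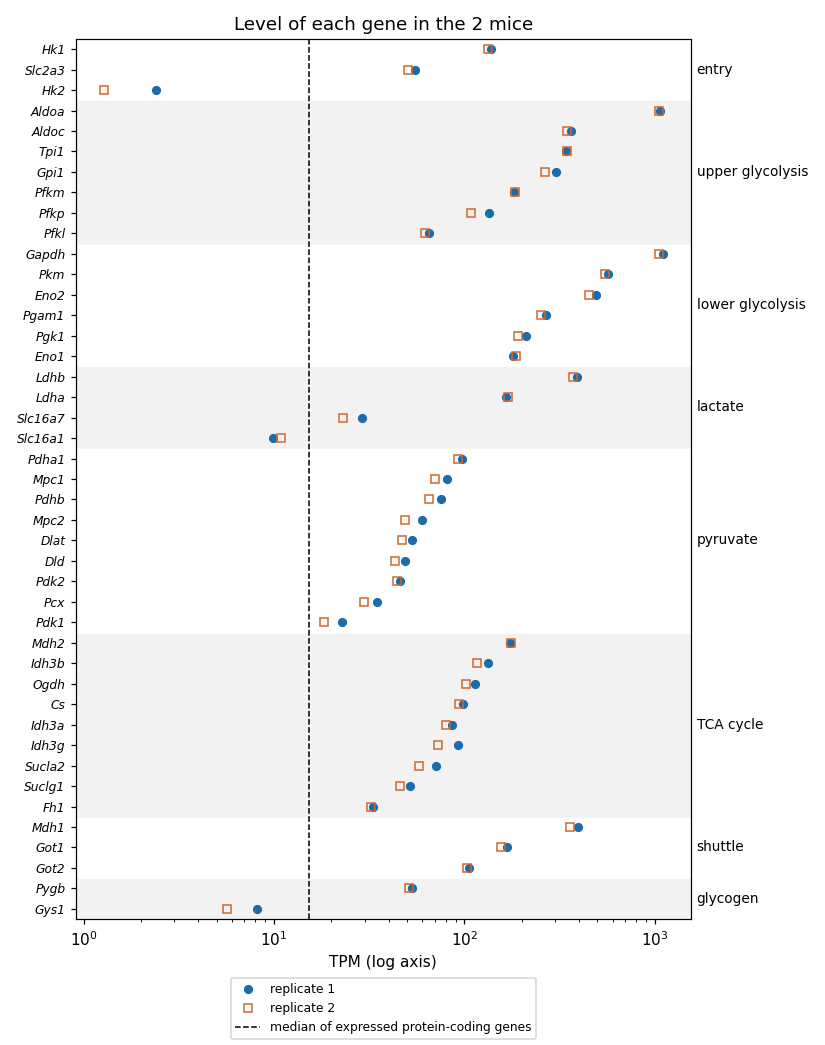
TPM (log axis) of each of the 43 genes in replicate 1 (filled circles) and replicate 2 (open squares), grouped by role, with a dashed line at the median of expressed protein-coding genes. Of the 15 glycolytic enzymes 13 have a mean above 100 TPM, while Hk2 and Gys1 lie below 10 TPM in both mice.

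Of the genes for glucose entry, Slc2a3, the neuronal glucose transporter GLUT3, had 55.3 and 50.8 TPM in replicates 1 and 2. Slc2a1, the glucose transporter GLUT1 of vessels and astrocytes, stood at 54.2 and 43.6 TPM. The ratio of Slc2a3 to Slc2a1 was thus 1.02 and 1.17, close to even, and the authors' second transcript table put Slc2a1 first, with a mean of 95.5 TPM against 78.4 TPM. Hexokinase, which traps glucose by phosphorylation, came mostly from Hk1, the brain form. Hk1 had 139 and 133 TPM, on 9696 and 12803 counts. Hk2, the insulin-responsive form of muscle and fat, had 2.41 and 1.28 TPM, on 172 and 162 counts. Hk1 therefore made up 98.7% ± 0.532 of the summed TPM of these 2 genes. Hkdc1, a further hexokinase gene outside the 43 and named after its values were seen, had 6.42 and 4.85 TPM, above Hk2. The TPM of Hk2 differed between the mice far more than its counts did. Its annotated short transcript Hk2-202, of 594 bases, took 32.4% of the gene's TPM in replicate 1 and 8.59% in replicate 2, which changed the effective length from 3814 to 4994 bases.

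Among the enzymes of upper glycolysis, aldolase stood highest and phosphofructokinase was shared among 3 genes. Gpi1, glucose phosphate isomerase, had 303 and 267 TPM. Phosphofructokinase makes the committed step. Its muscle-type gene Pfkm had 183 and 185 TPM, the platelet-type Pfkp 134 and 108 TPM, and the liver-type Pfkl 65.3 and 62.0 TPM. The order Pfkm, Pfkp, Pfkl was the same in both mice, and Pfkm made up 47.9% and 52.1% of the 3 together. Aldolase splits the 6-carbon sugar. Aldoa, the widespread aldolase, had 1063 and 1050 TPM, and Aldoc, the aldolase of astrocytes and Purkinje cells, had 363 and 345 TPM, so that Aldoa stood 2.98 ± 0.0773 times above Aldoc. Tpi1, triosephosphate isomerase, was at 343 and 345 TPM.

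In lower glycolysis all 6 genes exceeded 180 TPM in both mice. Gapdh, which oxidises glyceraldehyde phosphate and is often used as a reference gene, had 1100 and 1058 TPM and ranked 3 among expressed protein-coding genes, with Aldoa at rank 7. Pgk1, the first ATP-yielding enzyme of the pathway, had 211 and 190 TPM, and Pgam1, phosphoglycerate mutase, 268 and 254 TPM. Enolase came mostly from Eno2, the neuronal enolase, at 490 and 450 TPM, against 181 and 186 TPM for Eno1, the widespread form. Pkm had 570 and 550 TPM. Eno2 (chr6:124760053-124769673), Tpi1 (chr6:124810586-124814296) and Gapdh (chr6:125161715-125166467) lie within 406.4 kb of one another on chromosome 6, and 7 of the 43 genes are on that chromosome.

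Lactate dehydrogenase was mostly of the heart type. Ldhb, whose subunit is known to favour lactate as substrate, had 393 and 372 TPM. Ldha, whose subunit favours pyruvate, had 166 and 169 TPM. Ldhb made up 69.5% ± 1.06 of the 2 genes together, and 78.8% ± 2.02 in the second transcript table. Of the monocarboxylate transporters, Slc16a7 (MCT2, known from neurons) had 29.1 and 23.2 TPM and Slc16a1 (MCT1, known from glia and vessels) 9.94 and 10.9 TPM. Their ratio was 2.93 in replicate 1 and 2.13 in replicate 2, so its size was not well fixed by 2 mice although Slc16a7 led in both. Bsg, the basigin chaperone that carries MCT1 to the membrane, stood at 269 ± 9.35 TPM, above both transporters.

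The genes that admit pyruvate to the mitochondrion and oxidise it had mean levels from 20.5 to 95.2 TPM. Mpc1 and Mpc2, the 2 subunits of the mitochondrial pyruvate carrier, had 75.8 ± 7.66 and 54.3 ± 7.83 TPM. The pyruvate dehydrogenase complex had 95.2 ± 3.52 TPM of Pdha1 and 70.3 ± 7.64 TPM of Pdhb, the 2 subunits of its first enzyme. Its other enzymes, Dlat and Dld, had 50.2 ± 4.10 and 46.0 ± 3.83 TPM. The complex is switched off by kinases, of which Pdk2, with 46.2 and 44.5 TPM, stood above Pdk1, with 22.7 and 18.3 TPM. Pdp1, a phosphatase that switches it back on, was at 87.2 and 62.8 TPM. Pcx, pyruvate carboxylase, which refills the TCA cycle and is known as an astrocyte enzyme, had 34.8 and 29.7 TPM.

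The TCA cycle members ranged from Mdh2 at 175 ± 1.87 TPM down to Fh1 at 32.8 ± 0.552 TPM. Cs, citrate synthase, which opens the cycle, had 98.1 and 93.8 TPM. The 3 subunits of the NAD-dependent isocitrate dehydrogenase were not even. Idh3b had 133 and 117 TPM, the catalytic Idh3a 86.6 and 79.9 TPM, and Idh3g 93.0 and 72.6 TPM. Idh3b led in both mice, whereas Idh3a and Idh3g changed places between them, with ratios of 0.93 and 1.10. Ogdh, the first enzyme of the oxoglutarate dehydrogenase complex, had 108 ± 7.88 TPM. Sucla2 and Suclg1, the 2 subunits of ATP-forming succinyl-CoA ligase, had 64.6 ± 9.35 and 49.0 ± 4.37 TPM, and Fh1 is fumarase.

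The malate-aspartate shuttle carries the reducing power of glycolysis into the mitochondrion, and its 4 enzymes all stood above 100 TPM. The cytosolic forms exceeded the mitochondrial ones. Cytosolic Mdh1 had 395 and 361 TPM against 174 and 176 TPM for mitochondrial Mdh2, and cytosolic Got1 had 168 and 157 TPM against 106 and 103 TPM for mitochondrial Got2. In glycogen metabolism, Pygb, the brain glycogen phosphorylase, had 53.4 and 51.1 TPM. Gys1, glycogen synthase, had 8.15 and 5.70 TPM on 403 and 466 counts. Pygm, the muscle phosphorylase, was at 15.6 ± 3.01 TPM, and Pygb stood 3.39 ± 0.548 times above it.

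Other genes of the same pathways were taken from a list of 59. Of these, 31 had at least 10 TPM in both mice. Sdha, the flavoprotein of succinate dehydrogenase, was at 144 ± 13.2 TPM. Its partners Sdhb, Sdhc and Sdhd had 80.8, 89.8 and 46.5 TPM on average. Dlst, the second enzyme of the oxoglutarate dehydrogenase complex, had 64.5 ± 8.51 TPM, below Ogdh. Slc25a12 and Slc25a11, carriers of the malate-aspartate shuttle, had 69.8 ± 7.47 and 50.2 ± 0.785 TPM, below its enzymes. Pgk2, Pklr, Ldhc and Gys2, isozymes known from testis or liver and named after their values were seen, had 0 counts in both libraries, which allows up to 3 counts in each.

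Order was compared in 18 pairs, as the TPM of the first gene over that of the second in each mouse. The pairs are isozymes, related transporters or subunits, except Pygb/Gys1, which sets glycogen phosphorylase against glycogen synthase. The order was the same in both mice in 17 pairs, and Idh3a/Idh3g was the exception. For 14 of the 18 pairs the order also held in each mouse by the second transcript table, by protein-coding transcripts only and by expected counts. The other 4 were Mpc1/Mpc2, Idh3a/Idh3b, Idh3a/Idh3g and Pdk1/Pdk2. Expected counts are not corrected for length, so a long gene gains by that measure. Idh3a/Idh3b moved from 0.67 by TPM to 1.07 by expected counts, and Pdk1/Pdk2 from 0.45 to 0.96. Mpc1/Mpc2 was 1.40 by TPM but 0.95 and 1.13 in the 2 mice by the second table.

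**Figure D2:**
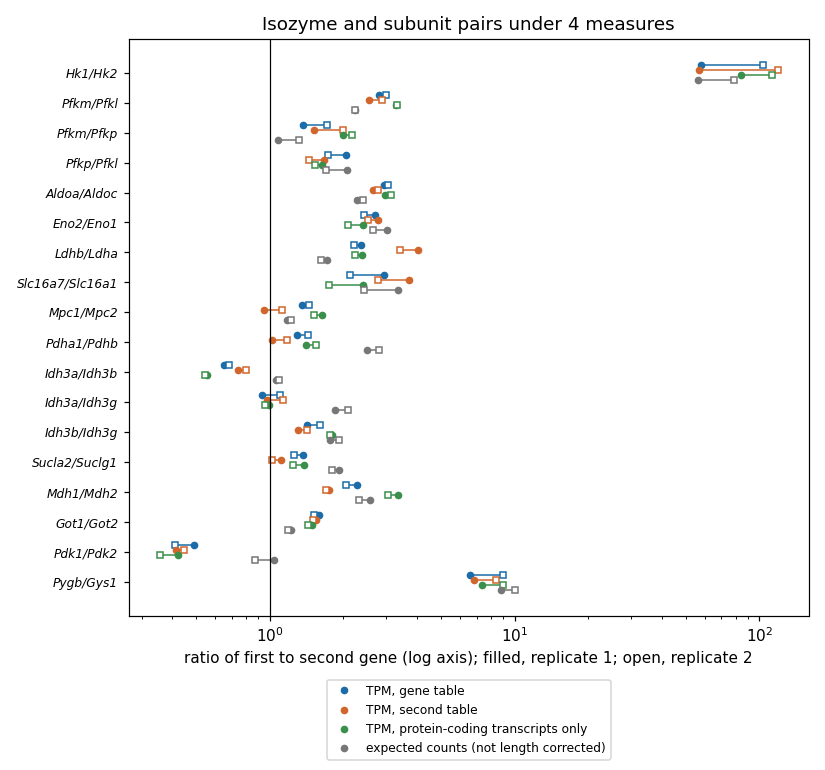
Ratio of the first to the second gene (log axis) for 18 pairs in replicate 1 (filled) and replicate 2 (open) under 4 measures, with a vertical line at 1. Ratios of 14 pairs stay on 1 side of the line in both mice under all 4 measures, and those of Mpc1/Mpc2, Idh3a/Idh3b, Idh3a/Idh3g and Pdk1/Pdk2 do not.

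The split of Pkm between its 2 main transcripts was close to even by TPM and moved towards M2 under the other measures. By TPM, the M1 transcript made up 52.7% and 51.6% of the M1 and M2 transcripts in replicates 1 and 2. By expected counts its share was 48.1% and 47.0%, and by the TPM of the second table it was 46.5% and 44.6%. The estimated counts of the second table gave the lowest share, 41.4% and 39.6%. By TPM, the first transcript table thus placed M1 first and the second placed M2 first. The 2 mice differed by at most 2 percentage points under each measure. The models of the 2 transcripts also differ outside the alternative exon, since Pkm-201 is 391 bases longer than Pkm-202. Counts are not corrected for length, so the longer M2 transcript gains by both count measures. The share is that of 2 transcript models and not of reads over the exon junctions, which were not used here.

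For each of the 43 genes, a single transcript led in both mice by the first transcript table. The leading transcript was annotated as protein-coding in 42 genes, and it held at least 50% of the gene's TPM in both mice in 38. The second table named the same leading transcript for 37. These counts were not made over all genes, so they cannot be called high or low. Slc16a1 has 1 annotated transcript, so its lead was fixed. Protein-coding transcripts made up a median of 93.5% of a member's TPM, against 90.6% over the expressed protein-coding genes. Gapdh was the only member below 50%, 1 of 43 (2.33%) against 8.90% of the expressed protein-coding genes.

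Of the TPM of Gapdh, 66.8% and 67.5% lay on Gapdh-208, a processed transcript of 483 bases, and 31.4% and 30.4% on the protein-coding Gapdh-201, of 1272 bases. The protein-coding transcripts of Gapdh summed to 347 ± 16.0 TPM, near Tpi1. The second table put 0 on both of these transcripts, spread the gene over Gapdh-203, Gapdh-207 and Gapdh-209, and gave it 3431 ± 73.4 TPM. By counts, Gapdh had 13355 and 17219 and Aldoa 26760 and 35923. The high TPM of Gapdh in the gene table thus went with a short effective length, of 649 bases in replicate 1 against 1347 for Aldoa, and its place relative to Aldoa was not settled by these tables.

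After Gapdh, the lowest shares on protein-coding transcripts were those of Gpi1, Dlat and Mdh2, followed by Idh3a (70.0% ± 2.09), Idh3g (72.7% ± 8.40) and Pfkp (73.6% ± 7.19). Gpi1 had 54.3% ± 8.94 on protein-coding transcripts, with most of the rest on nonsense-mediated decay and retained-intron models. Dlat had 58.5% ± 0.705, with the 770-base processed transcript Dlat-202 at 34.1%. Mdh2 had 65.1% ± 0.376, and its nonsense-mediated decay model Mdh2-203 took 31.7%. Counted on protein-coding transcripts alone, Mdh1 stood 3.19 ± 0.20 times above Mdh2, against 2.16 ± 0.163 times with all transcripts.

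**Figure D3:**
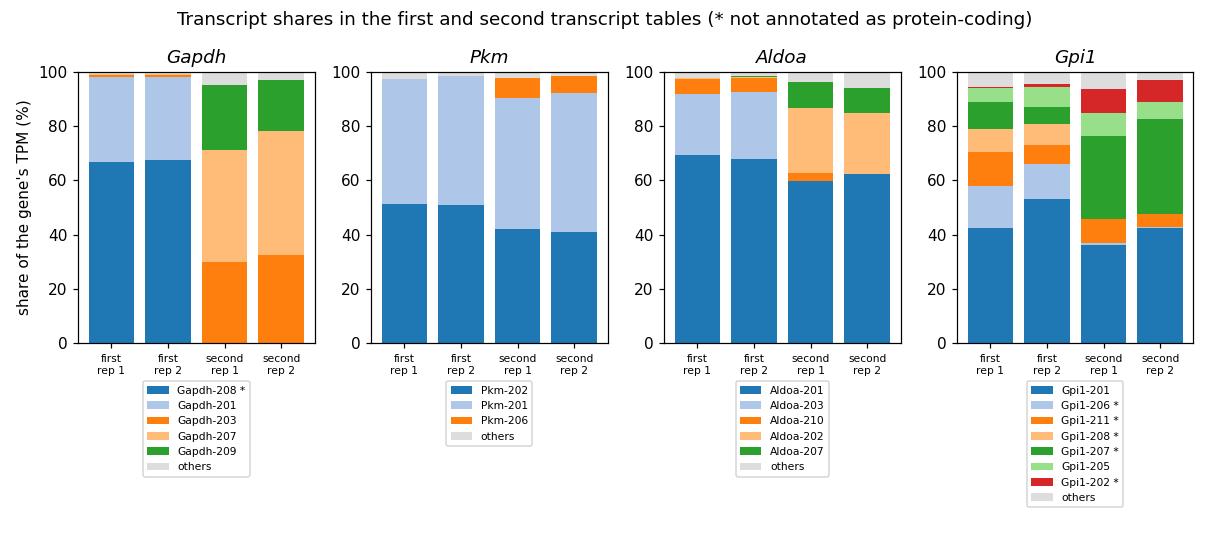
Share of TPM (%) by transcript for Gapdh, Pkm, Aldoa and Gpi1 in replicates 1 and 2, from the first and second transcript tables; an asterisk marks transcripts that are not annotated as protein-coding. In Gpi1 the mice differ within the first table, with Gpi1-201 at 42.4% and 53.1%. In Gapdh the second table has 0 for both transcripts that lead in the first.

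Several of these genes share sequence with other annotated genes, among them pseudogene copies, so part of their reads can fit more than 1 gene. Windows of 100 bases, the read length implied by the deposited lengths, were compared on the same strand with all other annotated transcripts. Some window was shared in 13 of the 43 genes. The search was not made for all genes, so this number has no background to be set against. The share of windows was 51.6% in Pgk1 (with the pseudogene Pgk1-rs7), 33.9% in Pgam1 (Pgam1-ps2), 20.9% in Gapdh (84 other genes) and 20.4% in Eno1 (Eno1b). The copies below were picked after their values were seen. Pgk1-rs7 was given 0 counts in both libraries after rounding, and Pgam1-ps2 266 and 315. Eno1b was given 4318 and 6139 counts, or 144 ± 5.08 TPM, against 184 ± 3.51 TPM for Eno1 itself. With Eno1b added to Eno1, the ratio of Eno2 to Eno1 fell from 2.56 ± 0.202 to 1.44. For Gapdh, the pseudogene Gm7336 was given 222 and 363 counts by the gene table but 8758 and 11638 by the second transcript table.

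The 2 mice were close in these genes. The ratio of replicate 2 to replicate 1 was taken from expected counts with TMM library sizes (a scaling that assumes most genes alike), for genes whose mean count reached 100, and all 43 passed. None of the 43 genes was 2-fold apart, against 0.753% of the 12615 genes measured, and none was 1.5-fold apart, against 3.12%. The log2 ratios ran from -0.29 for Hk2 to 0.35 for Slc16a1. All but Slc16a1 lay between the 5th and 95th percentiles of all genes, -0.37 and 0.33. Given how few genes pass either threshold, a count of 0 among 43 is close to the background.

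The direction of the small differences depended on the scale. By TPM, 37 of the 43 genes were lower in replicate 2, as were 83.5% of the expressed protein-coding genes. By TMM-scaled counts, 36 of the 43 were higher in replicate 2 (83.7%), against 55.1% of all genes measured. Scaled to the spike-ins, all 43 were lower. With TMM, 33 of the 43 lay above the median of all genes on the same scale, and 35 with the second table. DESeq2, total-count and spike-in scaling also gave 33, but they change only the library sizes. That moves every gene and the median of all genes by nearly the same amount, so the repeated 33 adds no check. The members' median log2 ratio was 0.12 with TMM, against 0.02 for all genes, a difference of 0.10. The quartiles of all genes, -0.11 and 0.14, describe single genes. How far a median of 43 genes would vary was not tested.

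By role, the medians of the log2 ratios with TMM were 0.21 for upper glycolysis, 0.15 for lower glycolysis, 0.10 for the TCA cycle and 0.05 for the pyruvate genes. The smaller roles, of 2 to 4 genes each, had 0.19 for lactate, 0.14 for the shuttle, 0.09 for glycogen and 0.08 for glucose entry. The 42 other pathway genes with enough counts had a median of 0.03. Slc16a1, on 804 and 1187 counts, had a log2 ratio of 0.35 with a 95% counting interval of 0.22 to 0.48, and Slc16a7 on 2683 and 2894 counts one of -0.10 with -0.18 to -0.03. Pfkp also lay lower in replicate 2, at -0.07 with -0.12 to -0.03, while Pfkm and Pfkl both lay at 0.21. Hk2 had an interval of -0.62 to 0.02, so its lower count in replicate 2 was within counting error. With TMM sizes the interval left out 0 for 31 of the 43 genes (72.1%), against 46.0% of the 12615 genes measured. By that rule 29 of the 43 were higher in replicate 2 (67.4%), against a background of 25.9%, and 2 were lower (4.65%), against 20.1%. The share grows with depth, and among genes with 1000 counts or more on average it was 30 of 40 members against 61.6%. Of those 40 members 28 were higher in replicate 2 (70.0%), against 36.7%, and 2 were lower (5.0%), against 24.9%. These intervals are exact Clopper-Pearson intervals and cover counting error only, not the spread between mice.

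**Figure D4:**
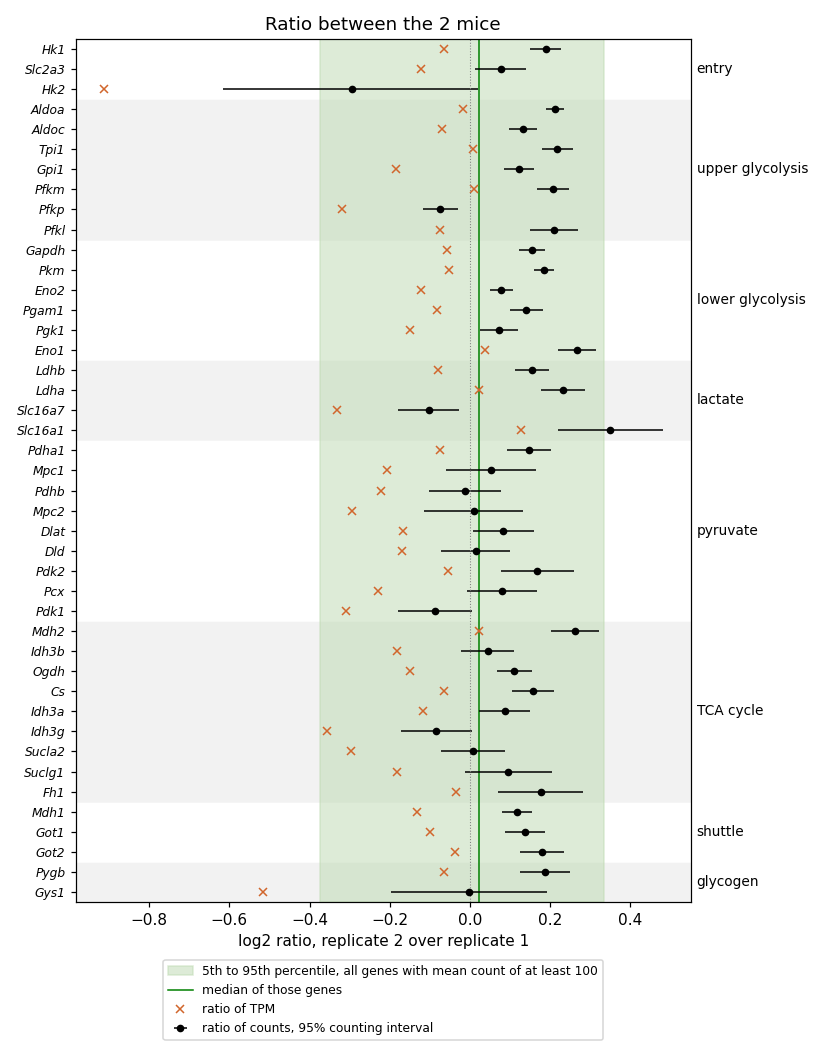
Log2 ratio of replicate 2 over replicate 1 for each gene, from TMM-scaled counts (black points with 95% counting intervals) and from TPM (crosses), with the 5th to 95th percentile of all genes shaded. All points but Slc16a1 lie within the shaded range, and the crosses lie to the left of the points.

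Lists of cell type markers and of immediate early genes were also compared between the mice. These lists were chosen with earlier results of these data known. No marker of neurons, glia, endothelium or red blood cells was 2-fold apart by TMM. The median log2 ratios were -0.04 for excitatory neurons, 0.07 for inhibitory neurons, 0.05 for microglia and 0.04 for endothelium. Markers of neurons, astrocytes, oligodendrocytes, microglia and endothelium were all found at 1 TPM or more in both mice. The 3 choroid plexus markers, of which 2 reached 1 TPM in both mice, summed to 72.7 TPM in replicate 1 and 9.82 TPM in replicate 2. The 4 red blood cell genes summed to 862 and 455 TPM. By TMM the median log2 ratios of these 2 lists were -1.06 and -0.69. The 5 oligodendrocyte markers summed to 1990 and 1485 TPM, with log2 ratios from -0.36 to just under 0 by TMM. The 5 astrocyte markers summed to 348 and 324 TPM, with log2 ratios from 0.11 to 0.21, and the 4 neuronal ones had ratios from -0.04 to 0.35. The 5 immediate early genes, which neurons switch on with activity, summed to 74.2 and 213 TPM. Their log2 ratios ran from 1.62 to 2.23 by TMM. The part of these lists in the ratios of the metabolic genes was not tested.

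Promoters were searched for ACGTG on either strand, the core letters of the site bound by hypoxia-inducible factors, which are known regulators of glycolytic genes. The same letters occur in the CACGTG E-box of other factors. The window ran from 250 bases before to 50 bases after each start in RefSeq (GRCm38.p6), and 40 of the 43 genes had an entry, with Slc2a3, Slc16a7 and Idh3a missing. The letters were found in 25 of 60 promoters of the members (41.7%), against 19.6% of all 32851 promoters and 21.1% of those of protein-coding genes. Ogdh alone gave 6 of the 25, and by gene the count was 18 of 40 (45.0%) against 23.6% of protein-coding genes. A gene counts if any of its promoters matches. The 40 members had 60 promoters, against 20150 for 16522 protein-coding genes, which favours the members by gene. Among the 18 glycolysis and lactate genes with an entry, 11 held the letters, including Aldoa, Gapdh, Pgk1, Pkm and Ldha, while Gpi1, Pfkl, Pfkp, Tpi1, Eno1, Eno2 and Ldhb did not. Of the other members 7 of 22 held them (31.8%), and by promoter the shares were 44.8% and 38.7%. Of the 12 matching promoters behind the 38.7%, Ogdh gave 6. A match is a description of letters, and neither base composition nor the number of promoters per gene was matched.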

How the data were processed

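Total RNA-seq of 2 mouse cortices, 1 library each, was analysed from gene and transcript tables. Per the file headers, the authors' gene table and first transcript table hold expected counts, TPM and the percent of a gene's TPM per transcript, with column names that RSEM writes. The second transcript table holds the authors' estimated counts and TPM, with column names that kallisto writes. Per the deposited notes, the build is mm10 and the annotation GENCODE M21. For the aligner, the versions and the strand setting, the answer is not given in the sources used here. TPM is scaled over all rows, so abundant short RNAs lower the TPM of other genes, and reads were placed on the C57BL/6J reference, which may lose reads of the CAST/EiJ allele.

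Levels are deposited TPM, as mean ± SD. For ratios, expected counts were rounded to whole numbers and scaled by TMM in edgeR 4.0.16 (R 4.3.3), with a prior count of 2. A biological test would need more than 1 group, so none was run. Calls are rules of size, 2-fold and 1.5-fold, for genes whose mean count reached 100. The ratio calculation was tested on simulated data. DESeq2 1.42.0 gave other size factors, and pandas 2.3.3 and scipy 1.17.1 were used. Without molecular identifiers, counting intervals and the upper limit of 3 counts for a count of 0 hold for counting error alone.

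All 43 members are named. Other pathway genes were named where they had 10 TPM in both mice, and exceptions are stated. Not every such gene is reported here, but all enter the counts. The members, lists and pairs were chosen with earlier results of these data known.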

Additional observations from a re-analysis of the deposited data

How the results depend on the processing

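The median TPM of the 43 genes was 95.9. It was 142 in the second transcript table, 217 when TPM was rescaled to nuclear protein-coding genes and 90.9 on protein-coding transcripts only. Leaving out either mouse returns the value of the other, here 98.1 or 93.8, and adds no check. The median log2 ratio of 0.12 became -0.32 with spike-in scaling, where the median of all genes moved to -0.42, and stayed between 0.08 and 0.17 under the other alternatives. With spike-in scaling 1 gene, Hk2, was 1.5-fold apart, and without the filter on low counts 1 record, the second Aldoa, was 1.5-fold apart. No gene was 2-fold apart under any alternative. The number of pairs with the same order in both mice was between 16 and 18. The M1 share of Pkm was 52.2% by TPM, with 52.7% and 51.6% in the single mice. It was 45.5% in the second transcript table and 47.6% by expected counts, on the other side of an even split. The estimated counts of the second table gave 40.5%. Neither count measure is corrected for length, so the longer M2 transcript gains by both. Idh3a/Idh3g was 1.02, but 0.98 on protein-coding transcripts, and 0.93 and 1.10 in the single mice. Idh3a/Idh3b went from 0.67 to 1.07 by expected counts. Over the other measures of the pairs, and with Eno1b added to Eno1, 17 means of the 2 mice stayed within 1 SD. Another 36, the Eno1b case among them, moved further with no change of order in the mean, and 2 changed order in the mean. The cause of these changes was not tested. No paired analysis was possible because there is 1 group, with 1 library per mouse. Adding Eno1b to Eno1, and including the second Aldoa record (median 0.12), were chosen after seeing the data. Genes with near-identical copies, Gapdh above all, and the short models of Hk2 and Slc16a7 limit what the levels can show. The use of 2 mice limits every SD.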
